A study of Mus musculus with 10 samples.

Results

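Cd48, Cd2, Slamf1, Slamf6, Slamf7, Ly9, Cd84 and Sh2d1a were followed in CD4+ splenocytes of septic mice. The 8 genes are 7 receptors of the SLAM and CD2 family and Sh2d1a, the gene of an adaptor used by most SLAM receptors. They were chosen by name as a family, with the difference between septic and sham mice already known, in which Cd48 and a probe set of Slamf6 stood low. That difference is therefore given for all 8 genes as a description of these arrays and supports nothing further. Of the 45101 probe sets of the array, 13 carried 1 of these gene symbols and no other, and 12 of the 13 were bright enough to be tested.

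RNA came from the spleens of C57Bl/6 mice aged 8 to 12 weeks, 6 h after surgery under halothane. Sepsis was induced in 5 mice by cecal ligation and puncture (CLP), a widely used model in which the gut leaks into the abdominal cavity. In 5 sham mice the cecum was brought out through the same opening, handled and put back. CD4+ cells were enriched magnetically by removal of other cells, to about 91% per the series text, and their amplified, biotin-labelled RNA was hybridized to Affymetrix arrays. By its source label every sample is from its own mouse, while the sham titles all carry biological replicate 1 and differ by a further number, 1 to 5, so n = 5 sham mice rests on that label.

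The SLAM receptors are immunoglobulin-like proteins of blood cells, and most of them bind a copy of themselves on the neighbouring cell. Cd48 differs in that it has no tail inside the cell: it is held in the membrane by a lipid anchor and serves as ligand for Cd2 and for the receptor Cd244a. The tails of Slamf1, Slamf6, Slamf7, Ly9 and Cd84 carry tyrosine motifs that dock small SH2 adaptors. In T cells the main adaptor is SAP, the product of Sh2d1a, which brings the kinase Fyn to the receptor. The family is known for steadying contacts between T cells and antigen-presenting cells, and loss of SAP in humans causes X-linked lymphoproliferative disease.

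Array medians of the deposited intensities lay between 127.6 and 142.4, and all arrays were brought to 1 median of 133.9. The intensity of a probe set is given on that linear scale, where values below 70.4 were treated as background, and differences are CLP minus sham in log2 units with limma's moderated standard error (SE). The arrays fell into separate classes by their 18S ribosomal RNA signal, which was between 195.2 and 281.9 in replicates 2 and 4 of each group and between 2949 and 5383 in replicates 1, 3 and 5. The 3 prime to 5 prime signal ratio of Gapdh, a sign of RNA copy length, followed the same classes (log2 ratio 3.24 to 3.74 in the low class and 4.37 to 4.88 in the high class). It did not separate CLP arrays (3.24 to 4.83) from sham arrays (3.48 to 4.88). The same ratio of Actb overlapped both between the classes (2.89 to 3.43 in the low and 2.64 to 3.55 in the high class) and between CLP arrays (2.86 to 3.43) and sham arrays (2.64 to 3.55). Both groups hold 2 arrays of the low and 3 of the high class, so differences are also given within each class.

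In septic mice Cd48 was lower in every array than in any sham array, and 1 of the 3 Slamf6 probe sets was lower in the same way. The remaining tested probe sets of the family, those of Cd2, Slamf1, Slamf7, Ly9, Cd84, Sh2d1a and the other Slamf6 sequences, overlapped between the groups. By limma with Benjamini-Hochberg adjustment over all 27028 tested probe sets, 2 of the 12 passed the threshold of 0.05, both lower in CLP. Over all tested probe sets 0.703% passed in either direction and 0.536% passed as lower in CLP. In 2 of the 12 all CLP arrays lay below all sham arrays, against 2.11% of all tested probe sets, and in 0 of the 12 they lay above, against 0.862%. Since the family was picked with this difference in view, nothing is read from these shares. The median difference of the 12 was -0.08, beside 0.00 over all tested probe sets, and their median absolute difference was 0.17, beside 0.10.

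**Figure D1:**
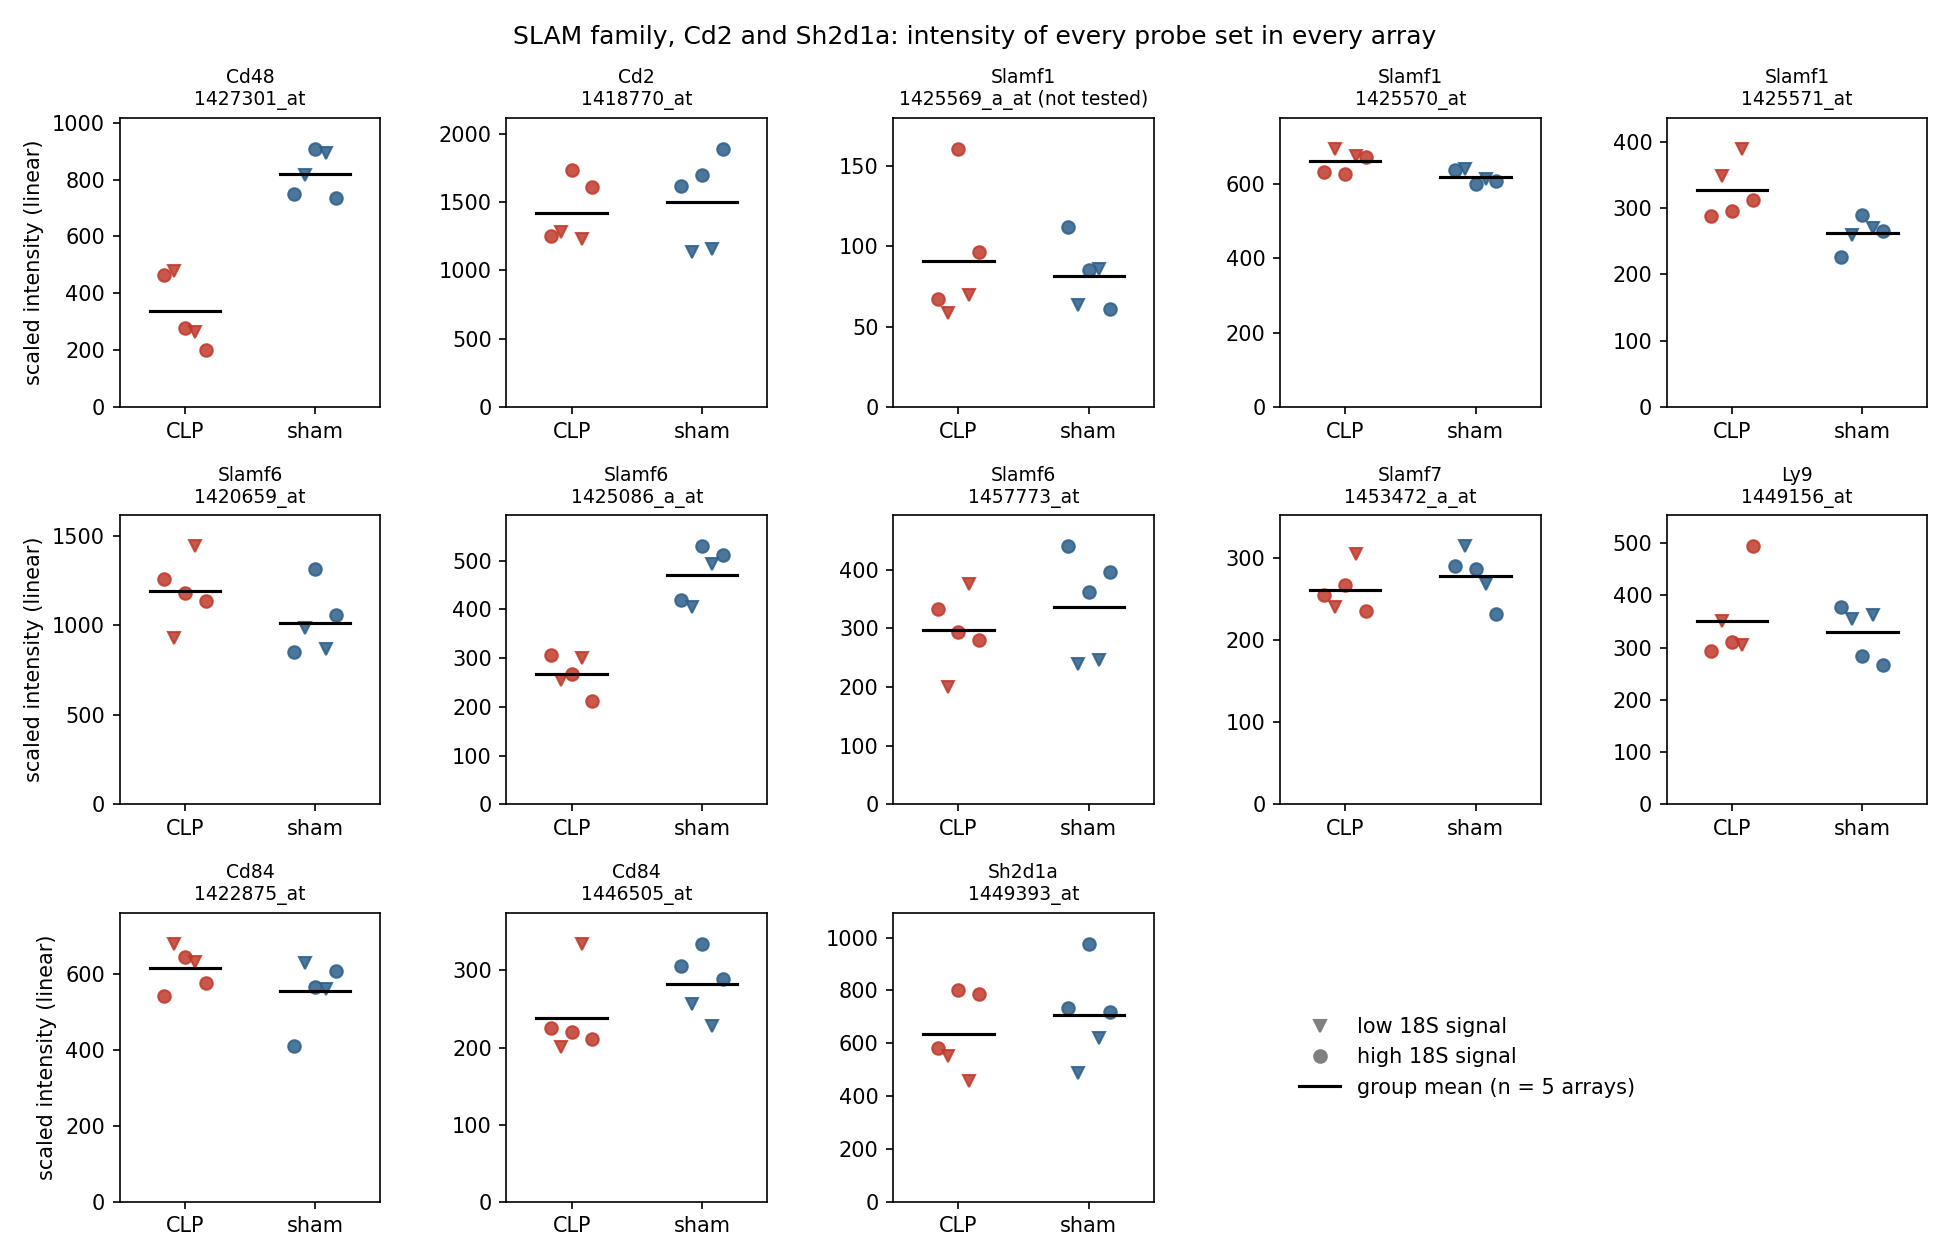
Scaled linear intensity of all 13 probe sets of the 8 genes in the 5 CLP arrays (left of each panel) and the 5 sham arrays (right). Points are mice, triangles mark the low and circles the high 18S class, and lines are group means. Cd48 runs from 202 to 478 in CLP arrays and from 735 to 909 in sham arrays, and Slamf6 by 1425086_a_at from 212 to 307 in CLP arrays and from 404 to 530 in sham arrays.

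Cd48, the ligand of the set, is read by a single probe set (1427301_at). Its intensity was 464, 478, 276, 265 and 202 in CLP replicates 1 to 5, against 749, 816, 909, 893 and 735 in sham replicates 1 to 5. Every CLP array was below the lowest sham array, and CLP replicates 3, 4 and 5 were lower than CLP replicates 1 and 2. The mean log2 intensity was 8.32 ± 0.54 in CLP arrays and 9.67 ± 0.14 in sham arrays (SD, n = 5 each), a difference of -1.36 ± 0.22 (SE), or 2.57-fold lower in CLP. The CLP arrays were spread more widely than the sham arrays: the CLP SD was larger than that of 96.1% of tested probe sets, and the sham SD larger than that of 32.1%. Only 0.0111% of tested probe sets had a lower difference. Within the low 18S class the difference was -1.26 and within the high class -1.43. It stayed between -1.51, without CLP replicate 2, and -1.19, without CLP replicate 5, over 23 other settings. Its call was lost in turn without CLP replicates 3 or 5 or without any 1 of the sham arrays.

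The promoters of Cd48 and Slamf6 are shown because these are the genes of the family with a probe set that was lower in all CLP arrays. In the table of RefSeq promoters used here (build GRCm38.p6) 5 of the 8 genes were matched, with 250 bases before and 50 after the annotated start, 5′ to 3′ on the gene's strand. Capitals mark matches on either strand to CCGGAA, the core bound by ETS factors, and TGTGGT, the core bound by RUNX factors. Both windows lie on the plus strand of chromosome 1, at chr1:171681742-171682041 for Cd48 and chr1:171917212-171917511 for Slamf6.
Cd48: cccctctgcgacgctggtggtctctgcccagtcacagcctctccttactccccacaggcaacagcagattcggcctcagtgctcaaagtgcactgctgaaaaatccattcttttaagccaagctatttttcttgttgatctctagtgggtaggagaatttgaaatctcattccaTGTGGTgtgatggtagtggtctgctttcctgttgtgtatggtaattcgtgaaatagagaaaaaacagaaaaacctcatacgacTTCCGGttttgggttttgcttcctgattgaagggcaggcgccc
Slamf6: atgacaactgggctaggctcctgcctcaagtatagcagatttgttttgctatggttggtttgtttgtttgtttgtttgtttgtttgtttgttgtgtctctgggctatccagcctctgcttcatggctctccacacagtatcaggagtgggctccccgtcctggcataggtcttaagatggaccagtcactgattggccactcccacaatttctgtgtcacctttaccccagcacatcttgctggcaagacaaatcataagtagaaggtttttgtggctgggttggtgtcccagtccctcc
The Cd48 window held 1 ETS core, which begins 7 bases after the annotated start on the minus strand, and 1 RUNX core, which begins 76 bases before the start on the plus strand. No match to either was in the Slamf6 window. An ETS core was found in 14.9% and a RUNX core in 16.8% of the 32851 promoters of the table. Cores for GATA factors (AGATAA), the glucocorticoid receptor half-site (TGTTCT) and AP-1 (TGANTCA) were searched as well and were in neither window. They occurred in 11.2%, 19.0% and 7.81% of promoters. Of the 3 other windows, Cd84 held 1 RUNX core and 1 AP-1 site, Slamf7 held 1 AP-1 site and Slamf1 held 1 glucocorticoid receptor half-site.

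Cd2, the adhesion and costimulatory receptor of T cells that binds Cd48 in the mouse, overlapped between the groups. Its intensity was 1251, 1279, 1733, 1227 and 1607 in CLP arrays and 1619, 1131, 1698, 1155 and 1891 in sham arrays, in replicate order. The sham arrays of the low 18S class were the lowest of all 10, and the high class exceeded the low class by 0.28 in CLP arrays and by 0.60 in sham arrays on the log2 scale. The difference was -0.06 ± 0.17 (SE) over all arrays, 0.13 within the low class and -0.19 within the high class. These class values, from 2 and 3 arrays a group, differed in sign, but each was near the overall SE in size. Whether the difference of Cd2 depended on the class was not tested. Cd244a, the other receptor of Cd48 and a SLAM family member found mainly on NK cells, had 163.7, 210.1, 161.8, 167.0 and 186.5 in CLP arrays, against 175.7, 172.5, 167.2, 181.5 and 176.6 in sham arrays. Its groups overlapped and its difference was 0.02 ± 0.09 (SE).

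Slamf6 (Ly108), a receptor that binds itself and of which the mouse makes several splice forms, was read by 3 probe sets that did not move together. By 1425086_a_at, whose suffix marks a probe set for several transcripts of a gene in Affymetrix naming, the intensity was 307, 254, 268, 299 and 212 in CLP arrays, against 418, 404, 529.7, 493 and 511 in sham arrays. No array of the groups overlapped, and the difference was -0.82 ± 0.12 (SE), or 1.76-fold lower in CLP, with means of 8.05 ± 0.21 in CLP arrays and 8.87 ± 0.18 in sham arrays (log2, SD, n = 5 each). It was -0.69 within the low and -0.90 within the high 18S class, the lowest and highest of 23 other settings in size. Its call was lost in turn without CLP replicates 2, 3 or 5 or without sham replicates 3, 4 or 5.

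By 1420659_at, which represents the gene where 1 probe set is used, Slamf6 gave 1262, 928, 1184, 1444 and 1135 in CLP arrays and 850.1, 984, 1313, 869 and 1057 in sham arrays. These groups overlapped, CLP replicate 4 was the highest and sham replicate 1 the lowest, and the difference was 0.23 ± 0.14 (SE). It was above 0 in all of 23 other settings, from 0.16 to 0.33. By 1457773_at the intensity was 332, 200.5, 294, 376 and 280.2 in CLP arrays and 440.2, 239, 362, 247 and 395 in sham arrays, with a difference of -0.17 ± 0.21 (SE). The sham arrays of the low 18S class were lower than the rest of their group, and the difference was 0.18 within the low class and -0.40 within the high class. With its probe sets averaged, Slamf6 differed by -0.25.

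The unequal change of the Slamf6 probe sets can be read inside each array, where scaling plays no part. These probe sets were set against each other after their values were seen, so the ratios restate the differences above and support nothing further. The ratio of 1425086_a_at to 1420659_at was 0.243, 0.274, 0.226, 0.207 and 0.187 in CLP arrays, against 0.492, 0.410, 0.403, 0.567 and 0.483 in sham arrays. Every CLP ratio was below every sham ratio, in both 18S classes. The mean log2 ratio was -2.15 ± 0.21 in CLP arrays and -1.10 ± 0.20 in sham arrays (SD, n = 5 each), a difference of -1.05. For 1457773_at over 1420659_at it was -2.02 ± 0.11 in CLP arrays and -1.62 ± 0.44 in sham arrays, and the groups overlapped. These ratios are of probe sets with different affinities, so their size in a group says nothing of how much of each transcript there was.

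**Figure D2:**
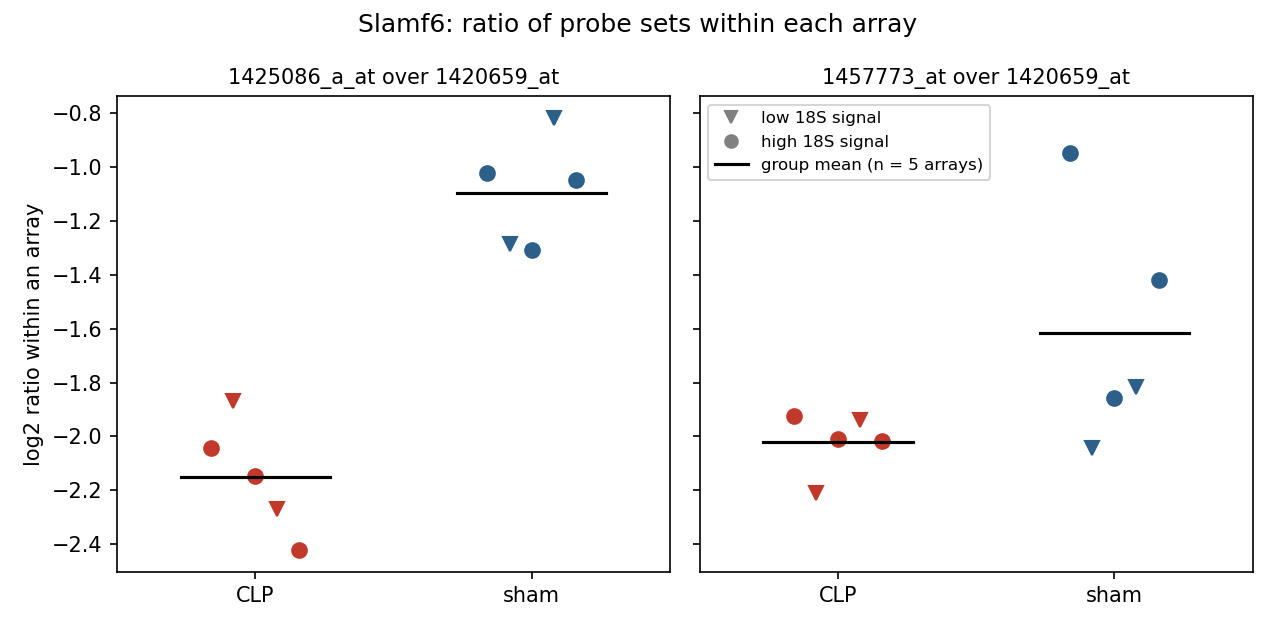
Log2 ratio of Slamf6 probe sets within each array, CLP left and sham right in each panel. Points are mice, triangles the low and circles the high 18S class, and lines group means. The ratio of 1425086_a_at to 1420659_at has a mean of -2.15 in CLP arrays and -1.10 in sham arrays with no overlap, while that of 1457773_at overlaps.

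Slamf1 (CD150), a receptor that binds itself and is used for entry by measles virus in humans, was also read by 3 probe sets. By 1425571_at it was 288, 349, 296, 390 and 312 in CLP arrays, against 227, 259, 289, 270.4 and 266 in sham arrays. CLP replicate 1, at 288.2, lay below sham replicate 3, at 288.9, and every other CLP array lay above all sham arrays. The difference was 0.31 ± 0.11 (SE), 0.48 within the low and 0.20 within the high 18S class, and did not pass. Little spread was seen by 1425570_at, which gave 632, 695, 628, 675 and 674 in CLP arrays and 638, 640.1, 601, 613 and 607 in sham arrays. Only 1.01% of tested probe sets had a smaller SD in sham arrays, and the difference was 0.09 ± 0.07 (SE). The third, 1425569_a_at, lay below the background value in 5 of the 10 arrays and was not tested; it ran from 58.3 to 161.0 in CLP arrays and from 61.1 to 112.1 in sham arrays.

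Cd84, a receptor that binds itself on T cells, B cells and platelets, was read by 2 probe sets that differed in opposite directions. By 1422875_at it was 544, 681, 645, 633 and 576 in CLP arrays and 409.8, 629, 566, 561 and 608 in sham arrays. Sham replicate 1 stood far below the others, and the difference of 0.16 ± 0.12 (SE) was 0.06 without it. By 1446505_at it was 225, 201, 221, 334 and 211 in CLP arrays and 306, 256, 335, 228 and 289 in sham arrays. CLP replicate 4 stood far above its group, and the difference of -0.26 ± 0.15 (SE) was -0.39 without it. Within the low 18S class, with 2 arrays a group, this difference was 0.10, and within the high class -0.50. The 0.10 rested on CLP replicate 4 (334): CLP replicate 2 (201) lay below sham replicates 2 and 4 (256 and 228).

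Ly9 (CD229), a receptor that binds itself on T and B cells, ran from 294 to 494 in CLP arrays, with a median of 311, and from 266 to 377 in sham arrays, with a median of 355. The highest value was that of CLP replicate 5, and the difference was 0.08 ± 0.16 (SE). Slamf7 (CRACC), best known on NK and plasma cells, ran from 236 to 305 in CLP arrays and from 233 to 315 in sham arrays, with a difference of -0.09 ± 0.11 (SE). In both genes the groups overlapped. The difference of Slamf7 was below 0 in all of 23 other settings, from -0.16 to -0.05, while that of Ly9 was -0.13 within the low and 0.22 within the high 18S class.

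Sh2d1a, which encodes the adaptor SAP, was 584, 552, 802, 456 and 786 in CLP arrays and 734, 486, 978, 622 and 717 in sham arrays. The groups overlapped, and the low 18S arrays were the lowest of each group. The high class exceeded the low class by 0.51 in CLP arrays and 0.54 in sham arrays on the log2 scale, more than the group difference of -0.15 ± 0.20 (SE). Within the low class that difference was -0.13 and within the high class -0.16.

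**Figure D3:**
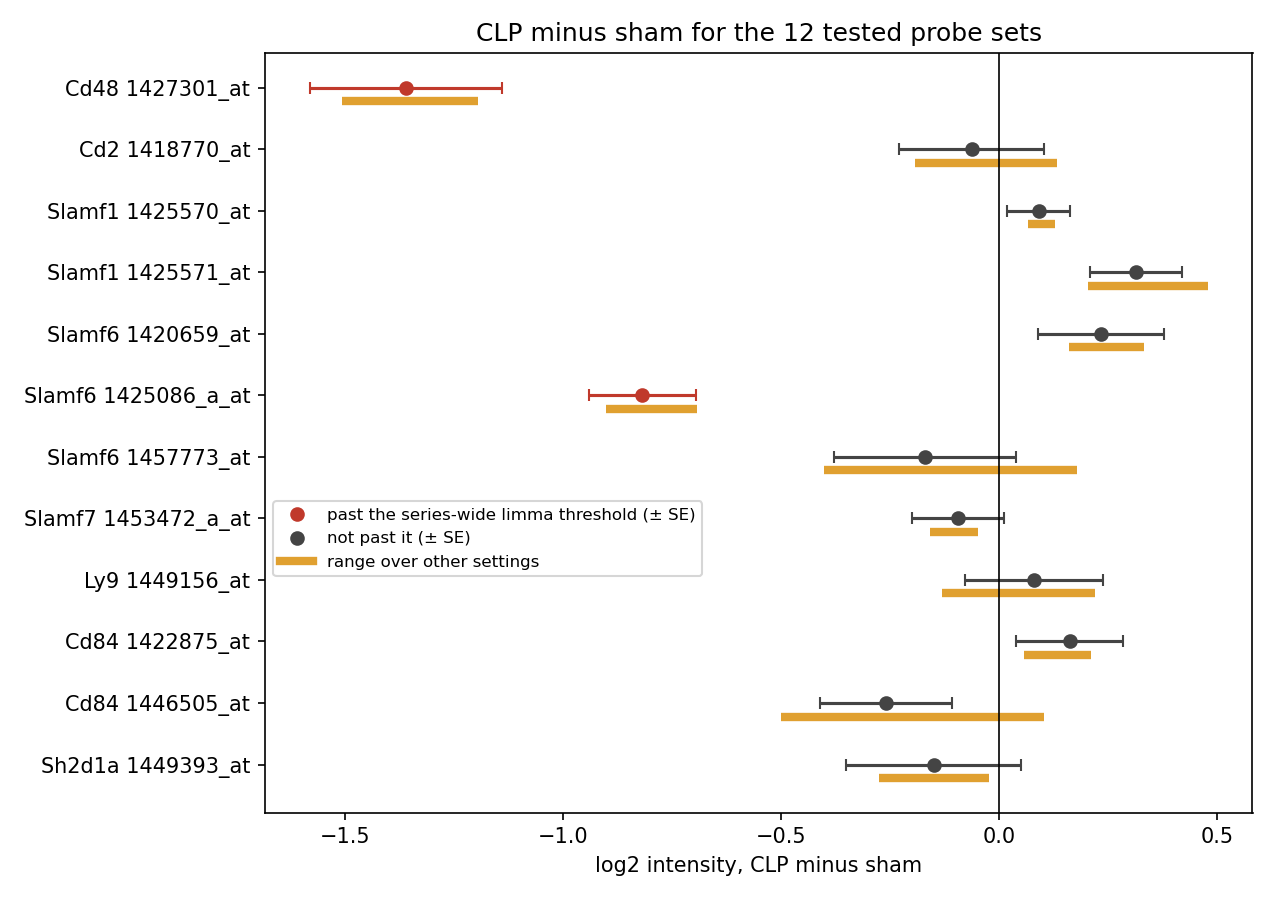
Log2 difference, CLP minus sham, of the 12 tested probe sets (points, bars ± SE), with the range over the other settings that keep the probe set as it is (orange). Cd48 at -1.36 and Slamf6 by 1425086_a_at at -0.82 are the only points past the threshold. The other 10 points lie between -0.26 and 0.31, and their ranges over other settings lie between -0.50 and 0.48.

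Of the 8 genes, 6 sit together on mouse chromosome 1 in RefSeq's annotation (GRCm38.p6), in the order Ly9, Slamf7, Cd48, Slamf1, Cd84 and Slamf6. Their neighbours were read for the same difference. By the brightest tested probe set of each gene, Slamf7 and Slamf1, the members nearest to Cd48, differed by -0.09 and 0.09, beside -1.36 for Cd48. Within 10 protein-coding genes on each side of the cluster and inside it, 13 genes outside the 8 were tested. Their differences ran from -0.33 for Pea15a to 0.31 for Pex19, with a median of 0.10. None passed the threshold by limma, beside 0.75% of all 13073 tested genes. In none were the groups apart, beside 2.11% of all tested probe sets with CLP below sham and 0.862% with CLP above. With shares this small and so few genes, nothing is read from these counts. Cd244a adjoins Ly9 and Vangl2 adjoins Slamf6, with differences of 0.02 ± 0.09 and 0.15 ± 0.10 (SE).

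**Figure D4:**
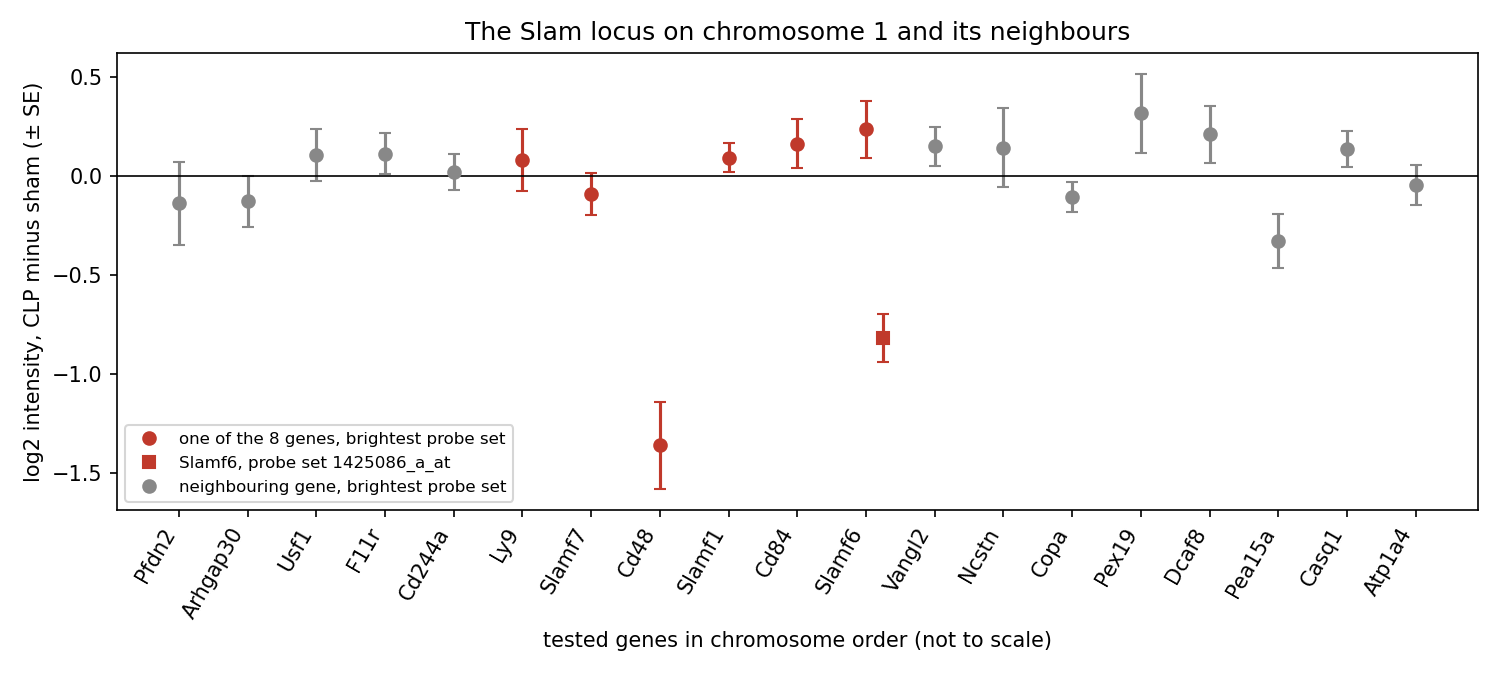
Log2 difference, CLP minus sham (± SE), of the tested genes around the Slam cluster in their order along chromosome 1, spaced evenly. Red circles are 6 of the 8 genes by their brightest probe set, the red square is Slamf6 by 1425086_a_at, and grey circles are neighbouring genes. Cd48 at -1.36 and the Slamf6 square at -0.82 lie below genes that run from -0.33 to 0.31.

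In all, 19 other genes of the SLAM and CD2 pathway were tested by their brightest probe set: 1 fell, 0 rose, and 6 had an unadjusted p under 0.05. Among 13073 genes 0.75% passed in either direction and 11.8% had an unadjusted p under 0.05. The one that fell was Sh3kbp1 (CIN85), an adaptor related to Cd2ap that binds Cbl proteins. Its intensity was 3312, 2697, 3183, 3151 and 2748 in CLP arrays, against 4082, 4137, 4427, 4143 and 4278 in sham arrays, and no array overlapped. The difference was -0.49 ± 0.08 (SE, adjusted p = 0.035 by limma), and its 3 other probe sets gave -0.84, -0.48 and -0.01 and did not pass. Its adjusted p was 0.0557 with the replicate number as a block and 0.0647 with dim probe sets kept. The call was lost as well on leaving out any 1 array other than CLP replicates 1 and 4, with the difference between -0.52 and -0.45.

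The next lowest p-values belonged to genes that did not pass. Bcl10, which links antigen receptors to NF-kB, differed by -0.41 ± 0.11 (SE, adjusted p = 0.127 by limma), and its CLP arrays all lay below the sham arrays (676 to 986 in CLP, 996 to 1161 in sham). Ptpn6 (SHP-1), a phosphatase that can dock on SLAM tails, differed by -0.35 ± 0.12 (adjusted p = 0.245). Fyn, the kinase that SAP recruits, differed by -0.28 ± 0.12 (adjusted p = 0.386), and Cd247, the zeta chain of the T cell receptor, by -0.26 ± 0.11 (adjusted p = 0.401). Over the 19 genes 12 had a lower mean in CLP arrays and the median difference was -0.08, beside 0.00 over all tested probe sets. That 0.00 is a median over probe sets and not over genes. The share of all genes with a lower mean was not taken, so nothing is read from the 12.

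Markers of T cells and of other cells were read beside these values, since in bulk RNA fewer cells of a type and less RNA per cell cannot be told apart. All 8 T cell markers had a lower mean in CLP arrays and none passed. Cd3d, Cd3e and Cd4 differed by -0.12 each, Cd28 by -0.35, Cd3g by -0.49, Cd5 by -0.69, Trat1 by -0.72 and Thy1 by -0.79, and the CLP arrays of Trat1 all lay below its sham arrays (adjusted p = 0.0695 by limma). Their summed intensity was 13888 to 16267 in CLP arrays and 16492 to 22507 in sham arrays, with no overlap. Thy1 and Cd3g also differed by 18S class. The high class exceeded the low class by 0.84 and 0.74 in CLP arrays and by 0.85 and 0.97 in sham arrays. Cd4 and Cd5 were higher in the high class in both groups too, while Cd3d, Cd3e, Cd28 and Trat1 were lower. Of 5 NK cell markers 3 had a lower mean, and the sum was 2540 to 2804 in CLP arrays and 2873 to 3586 in sham arrays. Klrd1 and Nkg7 differed by -0.54 and -0.24, Klrk1 by -0.003 and Gzma by 0.34. The defining NK marker Ncr1 lay at background in all 10 arrays. The part of these lower sums in the values of Cd48 and Slamf6 was not tested. The sums of the lists of B cells (6 genes, 2796 to 5409 in CLP, 2803 to 4551 in sham), plasma cells (5 genes, 9946 to 14225 in CLP, 10807 to 13875 in sham) and monocytes and macrophages (6 genes, 3325 to 4271 in CLP, 2739 to 4021 in sham) overlapped. Other lymphocyte lists overlapped as well: CD8 T cells (2 genes, 468 to 580 in CLP, 394 to 545 in sham), T follicular helper cells (6 genes, 5400 to 6829 in CLP, 5279 to 6389 in sham) and regulatory T cells (4 genes, 3017 to 4764 in CLP, 2689 to 3636 in sham). Within the last list, Foxp3, the factor that defines regulatory T cells, was 392.4 to 816 in CLP arrays and 211 to 391.6 in sham arrays, with every CLP array above every sham array and a difference of 1.10 (adjusted p = 0.053 by limma). Ctla4, an inhibitory receptor of regulatory and activated T cells, was 862 to 2346 in CLP arrays and 475 to 880.1 in sham arrays, a difference of 1.44 (adjusted p = 0.0513), while Ikzf2 and Il2ra differed by -0.29 and -0.10. The part of these markers in the values of the 8 genes was not tested either. Overlapping sums were also found for dendritic cells (5 genes, 937 to 1224 in CLP, 872 to 1027 in sham) and neutrophils (3 genes, 1251 to 9852 in CLP, 2817 to 8767 in sham). Erythroid cells (3 genes, 689 to 3912 in CLP, 299 to 1556 in sham), whose marker Hba-a1 lay at background in all 10 arrays, and platelets (4 genes, 640 to 812 in CLP, 524 to 747 in sham) overlapped too. Within these overlapping lists, the erythroid markers Slc4a1 and Alas2 differed by 1.42 and 0.95 (adjusted p = 0.365 and 0.488 by limma). Cd14 differed by 0.72 (adjusted p = 0.156 by limma), and the other monocyte and macrophage markers by -0.10 to 0.03. The neutrophil markers S100a8, S100a9 and Camp differed by -0.82, -0.90 and 0.86. Their part in the values of the 8 genes was not tested. No tested marker of any list passed by limma.

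Genes whose profile over the 10 arrays lay closest to that of Cd48 were found by the root mean square distance between log2 profiles, after each gene's own mean was taken off, among 12221 genes. The closest was Tnik, a kinase of the Wnt pathway, at a distance of 0.32. It had 435, 317, 343, 295 and 264 in CLP arrays, against values of 632 and more in sham arrays. Zfp119a and Slc7a6os (both 0.36), Tardbp, an RNA-binding protein, and Vcam1, an adhesion molecule (both 0.37), followed. Their differences ran from -1.27 for Tnik to -0.83 for Slc7a6os. The search itself favours such values, since the group difference is part of each profile. Zfp119a lay below the background value in CLP replicates 3 and 5 (69.8 and 56.8), so the floor entered its difference. Tardbp and Vcam1 overlapped between the groups and did not pass (adjusted p = 0.081 and 0.134 by limma). The 3 further probe sets of Tnik gave -0.45, 0.27 and -0.15. The other probe set of Slc7a6os gave -0.43, overlapped between the groups and did not pass. Among the family itself Slamf6 by 1425086_a_at lay at 0.42 from Cd48 and the other 10 probe sets at 0.72 to 0.92. These distances take in the group difference, in which Cd48 and 1425086_a_at stood low. They restate the differences above and support nothing further. For Slamf6 by 1420659_at the closest genes were Ilkap, Phf7, Ttll9, Gabrr2 and Eml5, at 0.12 to 0.14, with differences of 0.04 to 0.26.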

How the data were processed

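RNA of 10 mice was read on Affymetrix mouse arrays. The deposited values are linear intensities from 0 to 20290, with 1 value per array for each probe set. How the authors computed, corrected and scaled these intensities is not given in the sources used here. Precision is limited by the number of arrays. Groups and replicate numbers come from the titles (for sham, the number after the dash), and the source labels say that each sample came from an individual mouse.

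Intensities were multiplied to give all arrays the same median, raised to a floor of 70.4 (the 25th percentile over all arrays) where lower, and taken to log2. After removal of 64 control probe sets and of those whose mean log2 value was under the 40th percentile, 27028 remained. The CLP and sham groups were set against each other in limma 3.58.1 (R 4.3.3), with Benjamini-Hochberg adjustment across all 27028, and the fit was tested on simulated data. Genes were named from the platform annotation (34945 probe sets with 1 symbol, 932 with several, 9160 unnamed here). A gene is represented by its brightest tested probe set. In the marker lists its brightest probe set was used whether tested or not, and Ncr1, Cd68, Siglech and Hba-a1 were too dim to be tested. Figures were drawn with matplotlib 3.10.9.

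The members and lists, and the 18S classes (split at an intensity of 1000), were chosen with earlier results of these data known. All probe sets of the 8 genes are given. Also named are pathway genes past the threshold with the 4 next lowest p, the 5 genes closest in profile to Cd48 and Slamf6, and defining markers. Locus neighbours, named by position and by their end values, and the Slamf6 ratios were added after values were seen. Other settings changed scaling, floor, filter, variance model, array weights, blocks and the arrays used.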

Additional observations from a re-analysis of the deposited data

Results flagged for a closer look

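Dixon's ratio, the gap of an end value to its neighbour over the whole range of a group, was taken on log2 values. It was above its 95% value for 5 samples (0.71) in 3 of 36 groups of arrays, and about 5% of groups exceed that value by chance. The intensities beside the ratios are on the linear scale. CLP replicate 4 stood high for Cd84 by 1446505_at (ratio 0.782), with an intensity of 334 against 201 to 225 in the other CLP arrays. Sham replicate 1 stood low for Cd84 by 1422875_at (ratio 0.733), at 409.8 against 561 to 629 in the other sham arrays. CLP replicate 2 stood low for Fyn by 1417558_at (ratio 0.731), at 2413 against 2793 to 2948 in the other CLP arrays.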

How the results depend on the processing

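Over 24 other settings the 2 probe sets past the threshold were 2 in 12, 1 in 4 and 0 in 8. They were 0 with dim probe sets kept and with either 18S class alone, and 1 with the probe sets of a gene averaged. Leaving out each array gave 0 to 2 of them, and 0 to 1 for the other pathway genes. That pathway count, 1 in the main setting, was 0 with dim probe sets kept, with either class alone, with averaging and with the replicate block. At an unadjusted p under 0.05 limma counted 3 or 4 of the members' probe sets in the settings that kept single probe sets, beside 7.17% to 15.4% of all those tested, and 2 to 7 pathway genes, beside 6.94% to 16.6% of all genes. With averaging it counted 2 members and 4 pathway genes, beside 11.9% of all genes. Cd48 and Slamf6 by 1425086_a_at stayed lower in CLP in every setting that kept the probe set, so only the calls moved. Over all probe sets the calls numbered 190, against 4 without sham replicate 3 and 507 without CLP replicate 1, 3 with dim probe sets kept, 509 with array weights, 718 with the 18S class as a block and 0 in either class alone (1938 in the low and 3642 in the high class at an unadjusted p under 0.05).

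With the replicate block the members' count was 2 and all calls 248. The numbers were not taken to pair the arrays in the main setting. Deviations of same-numbered arrays correlated at 0.06 to 0.58, and the best match had the same number for 1 of 5 CLP and 2 of 5 sham arrays. For every number, however, the CLP and the sham array were of the same ribosomal RNA class, and every best match lay within that class. These values cannot decide whether the numbers pair the arrays, because number and class were not separated in them.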
